A study of Rattus norvegicus with 8 samples.

Results

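Interneurons are the local inhibitory neurons of the forebrain, and they differ in the peptide or calcium-binding protein that they make. Expression of 9 genes that mark these cells was examined: the GABA-synthesizing enzymes Gad1 and Gad2, the neuropeptide genes Sst, Npy, Vip and Cck, and the calcium-binding protein genes Pvalb, Calb1 and Calb2. They were chosen by symbol, as every probe set whose array annotation gave 1 of these 9 symbols alone, which yielded 10 probe sets of the 15923 in the table, 2 for Gad1 and 1 for each other gene. All 10 passed the filter on dim signals, which left 10310 probe sets to be tested in all.

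The tissue was a segment of the right brain hemisphere of male Wistar rats of 7 weeks, taken 2 h after surgery and read on Affymetrix RAE 230A arrays. Of the 4 groups, MCAO candesartan had 90 min of right middle cerebral artery occlusion with reperfusion after 5 days of the angiotensin AT1 receptor blocker candesartan (0.1 mg/kg per injection), MCAO vehicle had the same occlusion after 5 days of 0.9% NaCl, sham candesartan had the sham operation after candesartan, and sham vehicle had the sham operation after 0.9% NaCl. Each group had 2 arrays, each of RNA pooled from 2 rats, so values of single animals were averaged before measurement and 8 arrays were compared in all. The treatment protocol of the second MCAO candesartan array gave no pretreatment, and its group was taken from its description.

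GABA is made from glutamate by the decarboxylases GAD67 and GAD65, the products of Gad1 and Gad2, and is the transmitter of interneurons and also of the projection neurons of the striatum. In cortex and hippocampus, somatostatin, vasoactive intestinal peptide and parvalbumin mark largely separate interneuron classes. Neuropeptide Y overlaps with somatostatin, cholecystokinin is also made in quantity by pyramidal neurons, and calbindin is found in striatal and some pyramidal neurons too, so that 9 genes measured in whole tissue do not report interneurons alone. In such bulk RNA fewer cells of a type and less RNA per cell cannot be told apart.

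The labelled surgery was checked first: the immediate early gene Fos read 6332.2 and 7694.7 in MCAO candesartan and 10898.8 and 7984.5 in MCAO vehicle, against 754.8 and 852.3 in the sham candesartan pools and 954.8 and 964.8 in sham vehicle. The immediate early gene Arc was likewise above all sham arrays on every MCAO array, and the heat shock gene Hspa1a read 5793.8 and 14082.2 in MCAO candesartan and 27296.1 and 29810.3 in MCAO vehicle, against at most 1342.7 in sham. All 13 pan-neuron, all 12 pyramidal, 15 of 16 striatal and all 13 astrocyte marker genes present on the array passed the filter. The second MCAO candesartan array stood apart: it correlated with the others at a mean r of 0.959, where the other 7 arrays had at least 0.976, and its 99th percentile of signal was 37367 against at most 32590. The 2 MCAO candesartan pools also differed more from each other than those of other groups, with a median difference of 0.23 (log2) against 0.13 to 0.15.

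Across the 10 probe sets none passed the test in any comparison, and the clearest differences were higher signals of Sst and Cck in MCAO candesartan. Both MCAO candesartan pools lay above all 6 other arrays for 4 of the 10 probe sets, those of Sst, Vip, Cck and Calb1, against 7.06% of all tested probe sets. None of the 10 lay below all 6, against 8.61% of all probe sets. The same 4 genes had both pools above the others after quantile normalization, where the share of all probe sets was 7.12%, and with arrays centred on their medians, where it was 10.8%. After quantile normalization 1 probe set lay below all 6. This grouping of 2 arrays against 6 was chosen after the values were seen and is given as a description. The plot of signals by array shows these values.

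**Figure D1:**
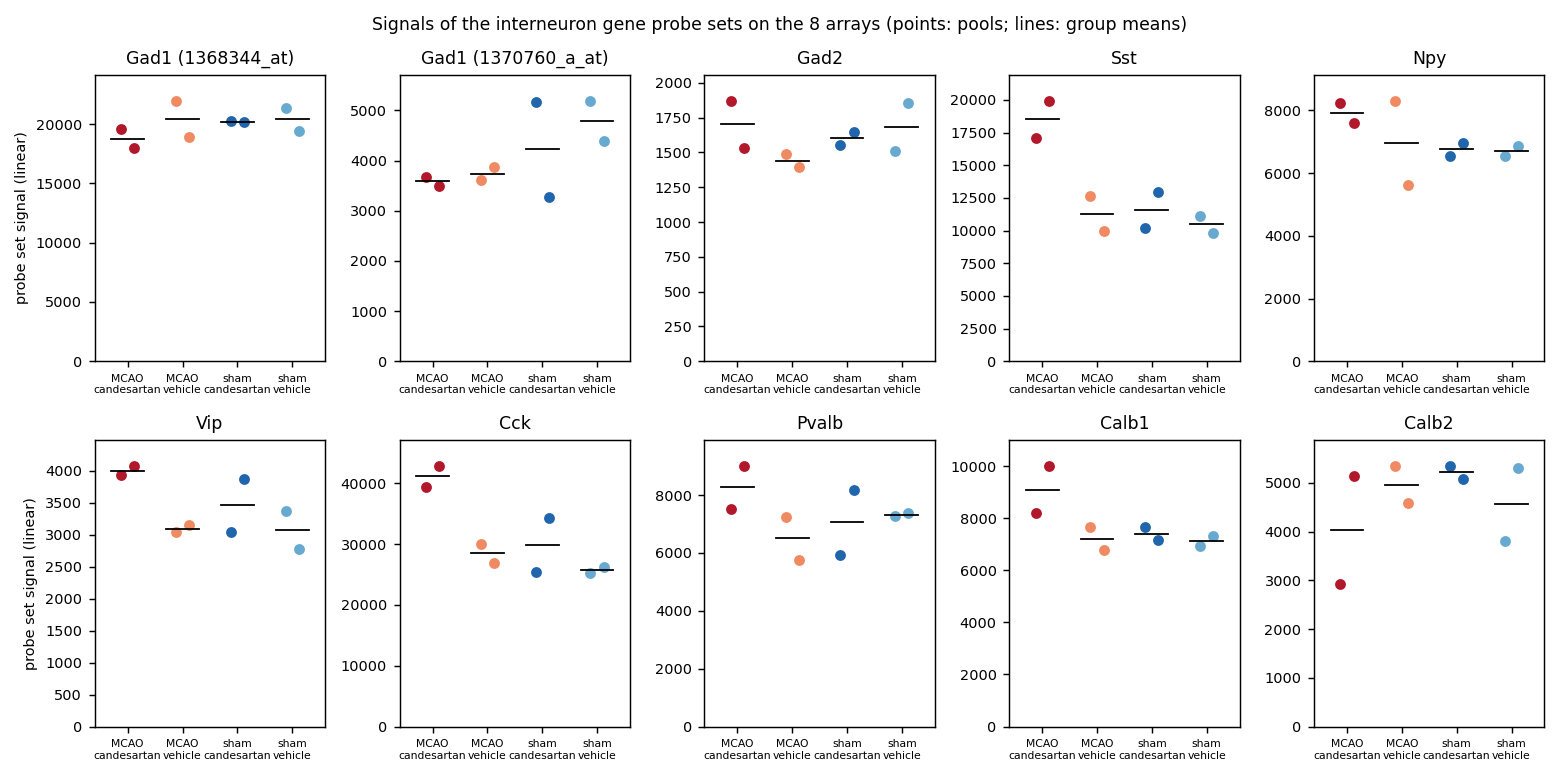
Probe set signals (linear scale, y axis from 0) of the 9 genes in the 4 groups, 1 panel per probe set. Points are pools of 2 rats and lines are group means. Both MCAO candesartan points lie above all others for Sst, Vip, Cck and Calb1, whereas the brighter Gad1 probe set stays between 17981 and 21993 on all 8 arrays.

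The brighter Gad1 probe set and Gad2 had the narrowest spans of the 10. The brighter Gad1 probe set (1368344_at) read 19603.9 and 17980.8 in MCAO candesartan, 21992.6 and 18942.9 in MCAO vehicle, 20260.5 and 20180.3 in the sham candesartan pools and 21390.5 and 19448.1 in sham vehicle. Its highest value was 1.22 times its lowest, the smallest ratio of the 10 probe sets, and MCAO vehicle and sham vehicle overlapped. On the log2(signal + 370) scale used for all tests, which damps the change of dim genes, MCAO minus sham with vehicle was 0.0011 ± 0.12 (SE) for this probe set, with a 95% interval of -0.26 to 0.26. The adjusted p in limma, fitted over all 10310 probe sets, was 0.9997.

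A second Gad1 probe set (1370760_a_at) read 3670.2 and 3497.7 in MCAO candesartan, 3611.3 and 3866.8 in MCAO vehicle, 5168.5 and 3280.3 in the sham candesartan pools and 5194.4 and 4383.6 in sham vehicle. Both MCAO vehicle pools lay below both sham vehicle pools, while the sham candesartan pools differed by 1.58 times and enclosed those of MCAO candesartan. MCAO minus sham was -0.19 ± 0.18 with candesartan (adjusted p = 0.698 in limma) and -0.32 ± 0.18 with vehicle (adjusted p = 0.764). The 2 Gad1 probe sets thus did not show the same pattern across groups, and neither difference passed the threshold of an adjusted p under 0.05.

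Gad2 read 1872.6 and 1532.6 in MCAO candesartan, 1488.2 and 1393.2 in MCAO vehicle, 1556.7 and 1646.2 in the sham candesartan pools and 1510.7 and 1858.6 in sham vehicle. The MCAO vehicle pools lay below all 6 other arrays, the highest of which was 1.34 times the lowest value. MCAO minus sham with vehicle was -0.18 ± 0.15 (95% interval -0.52 to 0.16, adjusted p = 0.888 in limma), and candesartan minus vehicle after MCAO was 0.19 ± 0.15 (adjusted p = 0.635).

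Somatostatin, the inhibitory peptide encoded by Sst, gave the widest contrast. Sst read 17122 and 19950.3 in MCAO candesartan, 12639 and 9940.1 in MCAO vehicle, 10193 and 12942.8 in the sham candesartan pools and 11121.7 and 9849.5 in sham vehicle. The 2 MCAO candesartan pools stood clear of the other 6 arrays, whose highest value was 12942.8, and those 6 overlapped among their groups. Group means were 18536 ± 2000 in MCAO candesartan and 11290 ± 1908 in MCAO vehicle (SD, n = 2 pools each).

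Candesartan minus vehicle after MCAO was 0.70 ± 0.16 for Sst (95% interval 0.36 to 1.05), and MCAO minus sham with candesartan was 0.67 ± 0.16 (0.32 to 1.02). These comparisons share the MCAO candesartan arrays. Sst ranked 51 of 10310 by p in the first and 82 in the second, and the adjusted p in limma was 0.195 and 0.178. MCAO minus sham with vehicle was 0.10 ± 0.16 (-0.25 to 0.44, adjusted p = 0.956), and the difference between the MCAO effects with candesartan and with vehicle, tested as an interaction, was 0.57 ± 0.22 (adjusted p = 0.551). Without the first MCAO candesartan array, which leaves the divergent second array alone in its group, Sst was 0.81 after MCAO and 0.78 against sham candesartan. Over all fits with 1 array left out, Sst ran from 0.54 to 0.87 in the first comparison and from 0.50 to 0.84 in the second.

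Cholecystokinin, a peptide of basket interneurons and pyramidal cells, showed the same order. Cck read 39377.8 and 42839.9 in MCAO candesartan, 30056.5 and 26848.9 in MCAO vehicle, 25360.4 and 34269 in the sham candesartan pools and 25236.2 and 26215.7 in sham vehicle. Both MCAO candesartan pools were highest, and both MCAO vehicle pools exceeded the sham vehicle pair. Candesartan minus vehicle after MCAO was 0.53 ± 0.15 (95% interval 0.20 to 0.85, adjusted p = 0.251 in limma) and MCAO minus sham was 0.47 ± 0.15 with candesartan (adjusted p = 0.276) and 0.14 ± 0.15 with vehicle (adjusted p = 0.915). After quantile normalization, which brings down the brightest signals of the second MCAO candesartan array, candesartan minus vehicle after MCAO was 0.31 for Cck and 0.60 for Sst. Without the first MCAO candesartan array the Cck difference after MCAO was 0.59, and over all fits with 1 array left out it ran from 0.45 to 0.61.

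Vasoactive intestinal peptide, made by interneurons that inhibit other interneurons, read 3931.2 and 4077.5 in MCAO candesartan, 3042.4 and 3153.9 in MCAO vehicle, 3049.4 and 3876.7 in the sham candesartan pools and 3364.3 and 2774.4 in sham vehicle for the Vip probe set. The 2 drug groups were separate after MCAO, while the second sham candesartan pool came close to the MCAO candesartan pools. Candesartan minus vehicle after MCAO was 0.33 ± 0.14 for Vip (0.02 to 0.65, adjusted p = 0.361 in limma), and MCAO minus sham with candesartan was 0.20 ± 0.14 (adjusted p = 0.592).

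Neuropeptide Y, often made together with somatostatin, did not separate the drug groups. Npy read 8246.3 and 7606.7 in MCAO candesartan, 8308.8 and 5615.4 in MCAO vehicle, 6553.2 and 6968.1 in the sham candesartan pools and 6528.6 and 6859.6 in sham vehicle. The MCAO vehicle pools held both the highest and the lowest value of the 8 arrays and differed by 1.48 times, while both MCAO candesartan pools lay above both sham candesartan pools. MCAO minus sham was 0.22 ± 0.16 with candesartan (adjusted p = 0.601 in limma) and 0.03 ± 0.16 with vehicle (-0.33 to 0.38, adjusted p = 0.991).

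The Sst and Vip promoters are known as targets of the cAMP-responsive factor CREB, whose binding letters TGACGTCA form the cAMP response element, with TGACG as its half-site. RefSeq windows from 250 bases before to 50 after the annotated start on GRCr8 were matched by gene ID for 6 of the 9 genes (Gad1, Gad2, Sst, Npy, Vip and Pvalb), and not for Cck, Calb1 and Calb2. Sst and Vip are shown because both their MCAO candesartan pools were above all other arrays, and Gad1 because its brighter probe set had the smallest span. Capitals mark the element or half-site, searched on both strands, the full element containing the half-site on each strand. All 3 are on the plus strand, Sst at chr11:90461296-90461595, Vip at chr1:44470230-44470529 and Gad1 at chr3:75777202-75777501.
Sst: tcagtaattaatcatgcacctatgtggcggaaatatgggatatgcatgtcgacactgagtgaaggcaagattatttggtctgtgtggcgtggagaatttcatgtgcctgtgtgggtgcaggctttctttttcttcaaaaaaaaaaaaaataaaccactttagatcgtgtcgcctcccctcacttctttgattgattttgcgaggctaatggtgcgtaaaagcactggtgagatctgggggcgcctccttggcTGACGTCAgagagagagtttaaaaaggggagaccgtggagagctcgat
Vip: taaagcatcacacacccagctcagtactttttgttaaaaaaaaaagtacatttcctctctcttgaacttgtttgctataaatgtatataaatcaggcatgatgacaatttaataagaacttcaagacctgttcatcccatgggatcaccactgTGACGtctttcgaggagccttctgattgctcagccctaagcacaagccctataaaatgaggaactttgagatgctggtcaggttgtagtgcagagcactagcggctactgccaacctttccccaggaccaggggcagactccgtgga
Gad1: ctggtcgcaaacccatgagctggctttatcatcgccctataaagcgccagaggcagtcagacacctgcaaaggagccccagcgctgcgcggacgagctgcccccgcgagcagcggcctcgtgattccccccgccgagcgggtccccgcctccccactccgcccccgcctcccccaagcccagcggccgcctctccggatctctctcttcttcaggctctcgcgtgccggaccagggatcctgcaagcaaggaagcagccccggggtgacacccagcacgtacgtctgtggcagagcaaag

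The full element occurred in the Sst window alone of these 6, beginning 2 bases after the annotated start, and in 1.83% of the 33469 windows of all genes. The half-site was present also in Vip, 97 bases before the start, and in Pvalb, 241 bases before it, against 21.2% of all windows. Gad1, Gad2 and Npy had neither run of letters in these windows. A match describes the sequence and not binding, and binding was not measured here.

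Among the calcium-binding proteins, Pvalb, the parvalbumin of fast-spiking interneurons, read 7524.9 and 9010.4 in MCAO candesartan, 7250.1 and 5763.9 in MCAO vehicle, 5941.8 and 8179.8 in the sham candesartan pools and 7279 and 7370 in sham vehicle. Both MCAO vehicle pools lay below those of sham vehicle and of MCAO candesartan, but the sham candesartan pools lay far apart and overlapped with those of every other group. Candesartan minus vehicle after MCAO was 0.33 ± 0.17 for Pvalb (-0.04 to 0.70, adjusted p = 0.421 in limma), and MCAO minus sham with vehicle was -0.17 ± 0.17 (adjusted p = 0.902).

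Calb1, which encodes calbindin, read 8187.3 and 10012.1 in MCAO candesartan, 7651.5 and 6794.2 in MCAO vehicle, 7676.5 and 7150 in the sham candesartan pools and 6929.1 and 7314 in sham vehicle. The other 6 arrays lay between 6794 and 7677, and the second MCAO candesartan pool was farthest above them. Candesartan minus vehicle after MCAO was 0.31 ± 0.13 (0.03 to 0.60, adjusted p = 0.349 in limma), and it was 0.17 without that second array. MCAO minus sham was 0.28 ± 0.13 with candesartan (adjusted p = 0.420) and 0.02 ± 0.13 with vehicle (adjusted p = 0.993).

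Calb2, which encodes calretinin, was the least repeatable between pools. It read 2919.4 and 5144.3 in MCAO candesartan, 5337.9 and 4586.6 in MCAO vehicle, 5346.9 and 5086 in the sham candesartan pools and 3815.7 and 5303.4 in sham vehicle. The first MCAO candesartan pool was the lowest of the 8 arrays and its partner read 1.76 times as much, and the groups overlapped in every comparison. MCAO minus sham was -0.39 ± 0.22 with candesartan (adjusted p = 0.498 in limma) and 0.13 ± 0.22 with vehicle (adjusted p = 0.957). Candesartan minus vehicle after MCAO was -0.32 ± 0.22 (adjusted p = 0.567) for Calb2. Its sign turned to 0.052 without the first MCAO candesartan array, and it was -0.69 without the divergent second array.

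The first question of the design was what MCAO did in rats given vehicle. None of the 10 probe sets was called, that is, none had an adjusted p under 0.05, against 0.262% of all probe sets tested (27 called). The median difference of the 10 was 0.017, beside 0.011 over all probe sets. Cck had both MCAO vehicle pools above the sham vehicle pair, against 24.6% of all probe sets, and 3 probe sets (the dimmer of Gad1, Gad2 and Pvalb) had both below, against 20.6%. At an unadjusted p under 0.05 there were 0 of the 10, against 7.04% of all probe sets. The differences ran from -0.32 for the dimmer Gad1 probe set to 0.14 for Cck.

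In rats given candesartan, MCAO minus sham was likewise called for none of the 10, against 0.242% of all probe sets (25 called). Both MCAO candesartan pools lay above both sham candesartan pools for 5 probe sets (Sst, Npy, Vip, Cck and Calb1), against 16.9% of all probe sets, and below them for the brighter Gad1 probe set, against 21.4%. The median of the 10 was 0.21, beside -0.028 over all probe sets. At an unadjusted p under 0.05 there were 2 of the 10 (Sst and Cck), against 12.4% of all probe sets.

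Taking both pretreatments together, which shares arrays with both comparisons above, MCAO minus sham was called for none of the 10, against 0.417% of all probe sets. No probe set of the 10 had all 4 MCAO arrays above or all 4 below the 4 sham arrays, whereas 2.83% of all probe sets had them above and 2.39% below. Sst differed by 0.38 ± 0.11 (adjusted p = 0.243 in limma), Cck by 0.31 ± 0.10 (adjusted p = 0.343) and the dimmer Gad1 probe set by -0.26 ± 0.13 (adjusted p = 0.572). Sst and Cck had an unadjusted p under 0.05, 2 of the 10 against 9.52% of all probe sets.

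The drug was then compared with vehicle within each surgery. After MCAO, candesartan minus vehicle was called for none of the 10, against 0.0679% of all probe sets (7 called), and both MCAO candesartan pools lay above both MCAO vehicle pools for 6 of them (Gad2, Sst, Vip, Cck, Pvalb and Calb1), against 18.0% of all probe sets. None lay below, against 23.8%. The median of the 10 was 0.26, beside -0.031 over all probe sets, and 4 of the 10 (Sst, Vip, Cck and Calb1) had an unadjusted p under 0.05, against 13.1%.

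After sham surgery the drug groups were close. Candesartan minus vehicle ran from -0.19 for the dimmer Gad1 probe set to 0.20 for Calb2, with a median of 0.034, and no probe set of the 10 had its pools apart, against 18.9% of all probe sets with both candesartan pools higher and 14.9% with both lower. No probe set of the table was called (0.00%) in limma, and none of the 10 had an unadjusted p under 0.05, against 3.92% of all. The histogram of all probe sets sets these differences among the rest.

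**Figure D2:**
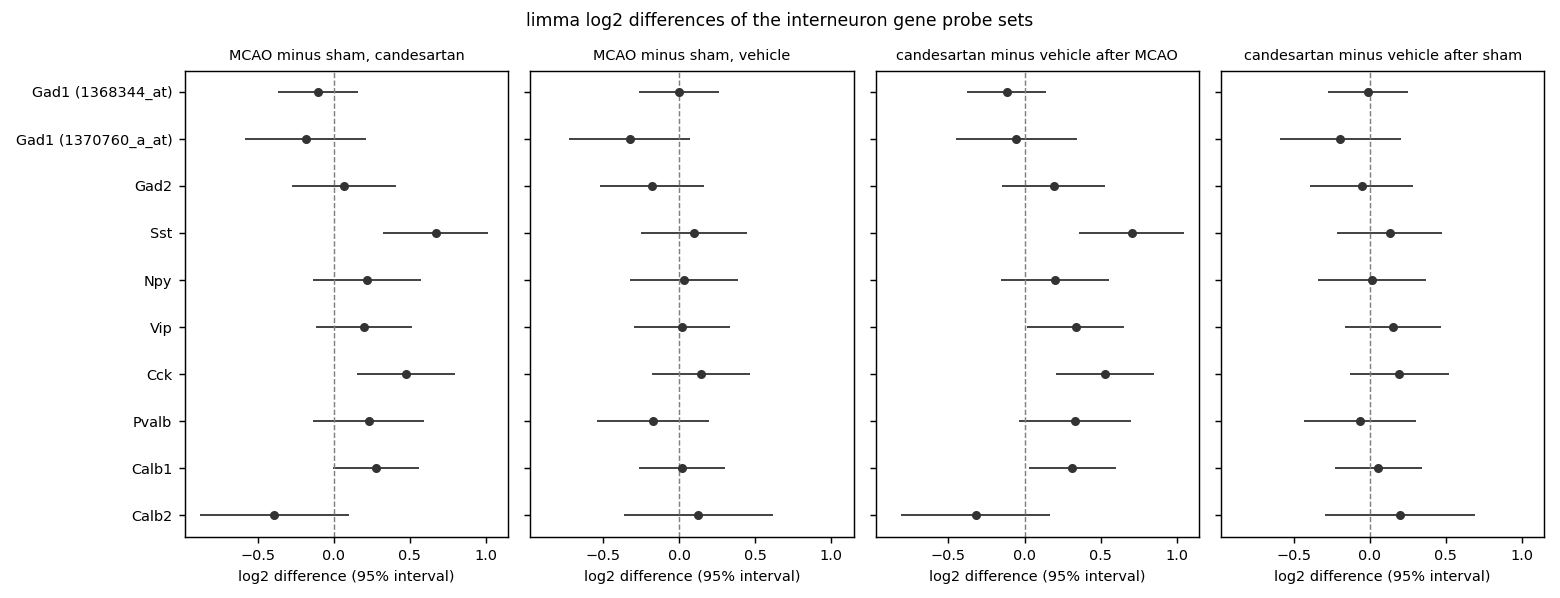
Log2 differences (x axis, log2(signal + 370) scale) of the 10 probe sets in 4 comparisons, 1 panel each, with points for the limma estimate and bars for its 95% interval. The intervals of Sst and Cck lie above 0 in both comparisons that hold the MCAO candesartan arrays. Those of Vip and Calb1 lie above 0 in candesartan minus vehicle after MCAO alone. All intervals include 0 in the 2 comparisons without those arrays.

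**Figure D3:**
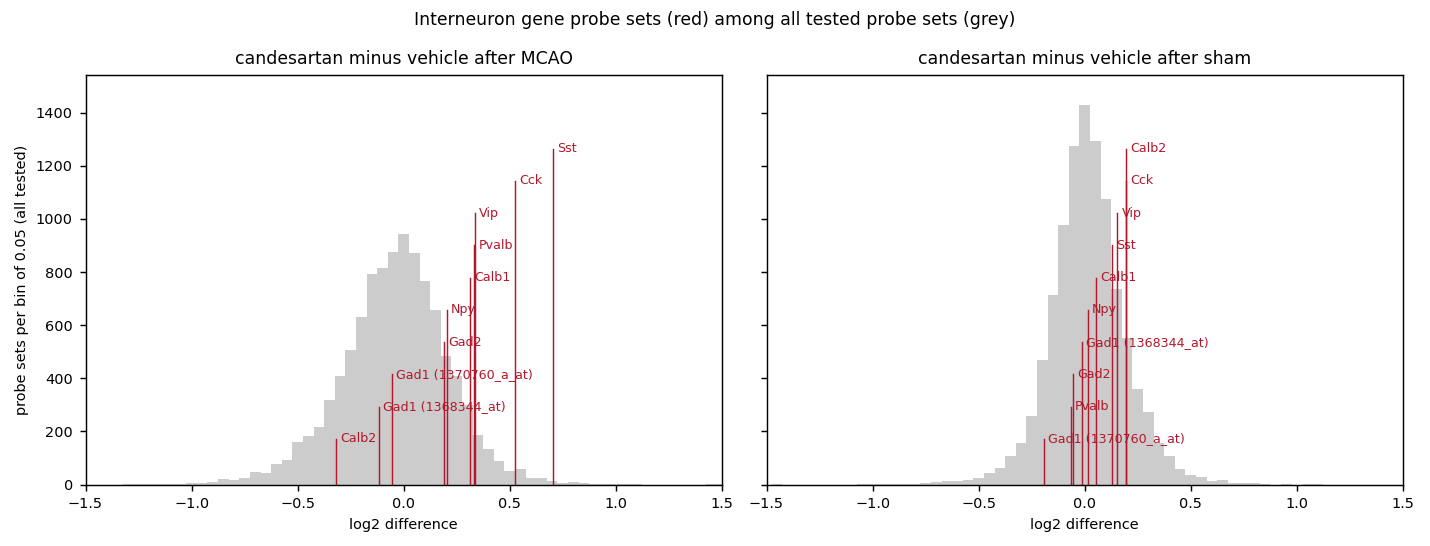
Numbers of tested probe sets (grey bars, y axis) by log2 difference of candesartan minus vehicle (x axis) after MCAO and after sham, with red lines at the 10 probe sets of the interneuron genes. The heights of the red lines only separate the labels, and the axis is cut in the sparse tails. Sst at 0.70 and Cck at 0.53 lie in the upper tail after MCAO, and all 10 lie within the bulk after sham.

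The interaction, the MCAO effect with candesartan minus that with vehicle, was called for none of the 10, against 0.0194% of all probe sets (2 called). Estimates for the peptide genes were 0.57 for Sst, 0.33 ± 0.21 for Cck (adjusted p = 0.637 in limma), 0.19 for Npy and 0.18 for Vip, and those for the calcium-binding proteins were 0.40 ± 0.23 for Pvalb (adjusted p = 0.621), 0.26 for Calb1 and -0.52 ± 0.31 for Calb2 (adjusted p = 0.626). Centring the arrays on their medians moved the median interaction of all probe sets by 0.13 (log2), and with it the estimates of Sst to 0.70 and of Calb2 to -0.39. Over all settings with no array left out, the interaction ran from 0.43 to 0.70 for Sst and from 0.099 to 0.46 for Cck. Sst alone of the 10 had an unadjusted p under 0.05 in limma, against 8.87% of all probe sets. After quantile normalization 0 of the 10 had one.

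The other gene lists are described by their counts, beside the shares of all probe sets already given. Of 14 further genes of GABA synthesis, packaging, uptake and breakdown, 10 were on the array and tested and none was called in any comparison. After MCAO, candesartan minus vehicle had a median of -0.18 over these 10 genes, with 3 above 0 where 44.2% of all probe sets were. Both pools were higher for 0 and lower for 4 of the 10, against 18.0% and 23.8% of all probe sets. Slc6a13, the GABA transporter GAT2 of the meninges, read 551.9 and 294.9 in MCAO candesartan, 831.3 and 952.8 in MCAO vehicle, 1490.7 and 686.9 in the sham candesartan pools and 984 and 1601.7 in sham vehicle. MCAO minus sham over both pretreatments was -0.61 ± 0.21 for Slc6a13 (adjusted p = 0.360 in limma) and -0.14 ± 0.10 for Slc38a2, a glutamine transporter (adjusted p = 0.716).

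Among 12 tested of 13 neuropeptide processing and granule genes none was called. Scg2, which encodes the granule protein secretogranin II, read 11671.6 and 9478.8 in MCAO candesartan, 14944 and 15008.6 in MCAO vehicle, 16297.2 and 14811 in the sham candesartan pools and 15716.2 and 15647.9 in sham vehicle. It was lowest in the 2 arrays in which Sst was highest, and candesartan minus vehicle after MCAO was -0.49 ± 0.12 (adjusted p = 0.239 in limma). Scg5, a chaperone of prohormone convertase 2, had 0.38 ± 0.14 in the same comparison (adjusted p = 0.300). Over the 12 genes the median was 0.13, with both pools higher for 5 (18.0% of all probe sets) and lower for 3 (23.8% of all probe sets).

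Of 14 receptor genes for the 4 peptides 12 were on the array and 6 passed the filter, with none called. Adcyap1r1, the PACAP receptor related to those for vasoactive intestinal peptide, read between 5577 and 7356 on the 8 arrays, and its candesartan minus vehicle after MCAO was -0.10 ± 0.11. Cckbr, the brain receptor for cholecystokinin, had -0.27 ± 0.17 in that comparison. Among 14 tested of 23 other neuropeptide precursors none was called, and the median after MCAO was 0.20 with both pools higher for 4 and lower for 2 of the 14, against 18.0% and 23.8% of all probe sets. The hypothalamic precursors Hcrt (orexin) and Pmch (melanin-concentrating hormone), which mark tissue outside the cortex and striatum, were both measured, Pmch between 6272 and 13625 on the 8 arrays.

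Of 33 other interneuron identity genes 16 were tested and none was called. After MCAO, candesartan minus vehicle had a median of -0.13, with 6 of the 16 above 0 (44.2% of all probe sets). Both pools were higher for 2 and lower for 8 of the 16, against 18.0% and 23.8% of all probe sets. Dlx5, a transcription factor of forebrain GABA neurons, read 991.3 and 902.8 in MCAO candesartan, 1437.7 and 1448.7 in MCAO vehicle, 964.8 and 744.3 in the sham candesartan pools and 890.8 and 889.3 in sham vehicle. Its MCAO vehicle pools stood above all others, and MCAO minus sham with vehicle was 0.53 ± 0.17 (adjusted p = 0.482 in limma). Dlx5 was dim: both sham vehicle pools and the second pool of each candesartan group read below 916, the signal set for the filter. Prox1, a factor of interneurons from the caudal ganglionic eminence, had -0.29 ± 0.10 for MCAO minus sham over both pretreatments (adjusted p = 0.367).

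Markers of other neurons were examined beside the peptides. Of 17 pyramidal neuron markers 12 were on the array and tested, and both MCAO candesartan pools lay above both MCAO vehicle pools for 8 of the 12 (18.0% of all probe sets) and above both sham candesartan pools for 10 of the 12 (16.9% of all probe sets), with medians of 0.32 and 0.26. Summed over the 12, the signal was 139778 and 166199 in MCAO candesartan, 101567 and 122435 in MCAO vehicle, 102325 and 108718 in the sham candesartan pools and 107755 and 117203 in sham vehicle. Nrgn, the calmodulin-binding protein neurogranin, read 39885.7 and 68454.9 in MCAO candesartan and at most 35499.4 elsewhere. Without Nrgn, the brightest of the list, the sum was 99892 and 97744 in MCAO candesartan and at most 86936 on the other arrays. None of the 12 was called, and candesartan minus vehicle after MCAO was 0.74 ± 0.22 for Nrgn (adjusted p = 0.253 in limma).

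Pan-neuron markers, 13 tested of 15, had a median of 0.12 for candesartan minus vehicle after MCAO, with both pools higher for 5 and lower for 1, against 18.0% and 23.8% of all probe sets. Their summed signal was 286570 and 325380 in MCAO candesartan, 248050 and 256243 in MCAO vehicle, 253930 and 257962 in the sham candesartan pools and 251245 and 275722 in sham vehicle. Snap25, a synaptic vesicle fusion protein, read 86193.7 and 113989 in MCAO candesartan and at most 73518.7 elsewhere, and it made up much of that sum. Without Snap25 the sum was 200376 and 211391 in MCAO candesartan and reached 202203 in sham vehicle, so that these groups overlapped. These sums without the brightest gene were added after the values were seen. Tubb3, a neuronal tubulin, read 8707.2 and 6023.6 in MCAO candesartan, 8291.8 and 8243.9 in MCAO vehicle, 9307.6 and 7781.4 in the sham candesartan pools and 8988.6 and 9458.6 in sham vehicle, and its candesartan minus vehicle after MCAO was -0.18 ± 0.16 (adjusted p = 0.667 in limma).

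Neuronal calcium sensors and other EF-hand proteins, 14 tested of 20, had both MCAO candesartan pools above those of MCAO vehicle for 8 and below for 1, with a median of 0.18, against 18.0% and 23.8% of all probe sets. Kcnip3, whose product binds calcium and a potassium channel, had 0.58 ± 0.13 after MCAO (adjusted p = 0.222 in limma). Its candesartan minus vehicle was also 0.47 ± 0.13 after sham, where both candesartan pools were higher too, and its interaction was 0.10 ± 0.19. Striatal medium spiny neuron markers, 15 tested of 17, had a median of 0.15 for candesartan minus vehicle after MCAO, with 11 of the 15 above 0 and both pools higher for 6 and lower for 0, against 18.0% and 23.8% of all probe sets. Their summed signals were 94605 and 79154 in MCAO candesartan, 68692 and 75937 in MCAO vehicle, 92384 and 69573 in the sham candesartan pools and 73390 and 74812 in sham vehicle, so that MCAO candesartan was above MCAO vehicle but overlapped with sham candesartan. Without Penk, the brightest gene of the list, MCAO candesartan overlapped with MCAO vehicle too. That sum was 77347 and 60175 in MCAO candesartan and 54631 and 60947 in MCAO vehicle. The part of the tissue's neuronal makeup in the Sst, Cck, Vip and Calb1 differences was not tested.

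Astrocyte markers, 13 tested of 14, had a median of -0.0094 for candesartan minus vehicle after MCAO, with both pools higher for 3 and lower for 4, against 18.0% and 23.8% of all probe sets. With vehicle, both MCAO pools were lower than both sham pools for 11 of these 13 (20.6% of all probe sets), at a median of -0.18. Markers of hypothalamus and thalamus, which include Calb2, had medians of -0.29 for candesartan minus vehicle after MCAO and -0.44 for MCAO minus sham with candesartan, and no gene of the 8 tested had both pools higher in either. Both pools were lower for 3 of the 8 after MCAO (23.8% of all probe sets) and for 5 of the 8 with candesartan (21.4% of all probe sets). In the comparison after MCAO the medians were -0.25 for choroid plexus, -0.17 for blood, -0.14 for oligodendrocyte, 0.0027 for microglia and 0.0025 for endothelial markers, with none called.

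**Figure D4:**
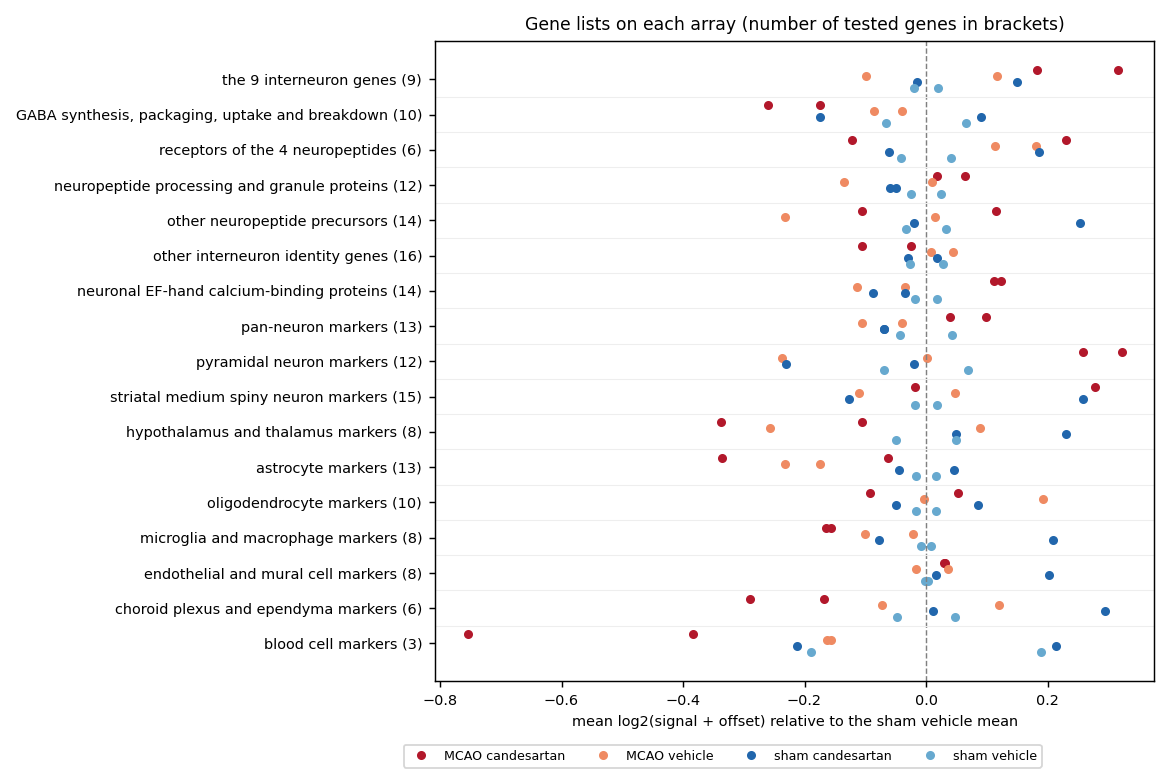
Mean log2(signal + 370) of each gene list on each array, relative to the mean of the 2 sham vehicle arrays (x axis), with 1 row per list and 1 point per pool. The 9 interneuron genes lie at 0.18 and 0.32 in MCAO candesartan and at -0.10 and 0.12 in MCAO vehicle, and the pyramidal neuron markers lie at 0.26 and 0.32 in MCAO candesartan and at -0.24 and 0.0011 in MCAO vehicle.

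The genes whose log2 signals over the 8 arrays were most like each interneuron gene were mostly not interneuron genes. For Sst they were Mmp17 (Pearson r = 0.991), Washc2c (0.970) and a second probe set of Kcnip3 (0.970). For Cck they were Nrsn1 (0.970), Washc2c (0.969) and Sst itself (0.961). Over the 6 arrays without MCAO candesartan, r between Cck and Sst was 0.831, and that between Sst and Kcnip3 was 0.984.

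The remaining genes each had other nearest patterns. For Vip these were Rnf14 (0.961), Rbm39 (0.958) and Zfp692 (0.957), for Calb1 Cse1l (0.986), Ywhaz (0.984) and Rtn1 (0.977), and for Pvalb Hagh (0.971), Emc4 (0.950) and Serpini1 (0.942). Npy was nearest to Znrf1 (0.937), Gad1 to Mbnl1 (0.942), Gad2 to Drg2 (0.924) and Calb2 to Exosc9 (0.945). These are the highest of many correlations over 8 arrays that share a scaling, and they are given as a description.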

How the data were processed

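Probe set signals on 8 Affymetrix RAE 230A arrays were used, with 2 arrays in each of 4 groups taken from the labels. The deposited values are signal intensities on a linear scale in 1 table of the series. The submitters' processing notes name GCOS, the Affymetrix operating software, with no version, and its settings are not given in the sources used here, so that detection calls were not used. The arrays' means trimmed by 2% all came to 2500, so the authors' scaling was kept. The 20th percentile of all signals, 370, was added as an offset before log2, and probe sets above 916 (the 40th percentile) on at least 2 arrays were tested, 10310 of 15923 after 57 controls were left out. Symbols came from the platform annotation, and 12783 probe sets had 1 symbol, 312 several and 2771 none. Other per-sample columns numbered 0.

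All 8 arrays were fitted as 4 group means in limma (3.58.1, R 4.3.3; lmFit, eBayes with a variance trend), with 6 contrasts and Benjamini-Hochberg adjustment over all 10310 probe sets. The code was run on simulated data with an equal spread in all groups, which does not cover the wider spread of the MCAO candesartan pools. The tests are two-sided. With 2 pools against 2 an exact permutation test of 1 gene cannot go below p = 0.333, so limma's pooled spread was used, and p-values measure the spread between pools. The number of arrays limits the precision.

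The 9 genes and the gene lists were chosen with earlier results of these data known. Every probe set of the 9 genes is named. Fos, Arc and Hspa1a were read as checks of surgery. Genes of other lists, 1 probe set a gene (the brightest), are named from among the 2 of each list with the smallest p over both pretreatments, since none was called, and up to 3 nearest patterns a gene by Pearson correlation. Alternatives were another normalization, offset, filter or variance setting, only the groups compared, the replicate number as a block, and each array left out. Promoter windows came from RefSeq (GRCr8).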

Additional observations from a re-analysis of the deposited data

How the results depend on the processing

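No probe set of the 9 interneuron genes was called under another normalization, offset, filter or variance setting, with only the groups compared, or with the replicate block. Of their values under all alternatives, 954 kept direction and side of the threshold, 43 changed sign and 3 became called. Many of these values could not change sign. The filter, the variance setting, the block and a fit of only the groups compared leave the estimate as it is. So does leaving out an array of a group outside the comparison. The adjusted p in limma for candesartan minus vehicle after MCAO, with no array left out, ran from 0.160 to 0.526 for Sst and from 0.202 to 0.534 for Cck. With 2 pools a group, differences under the spread between pools could not be resolved, and 1 array decided several values.

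Counts of probe sets called over the whole table depended more on the settings. For MCAO minus sham with vehicle (27) the count was 12 without the filter and 93 in a fit of only the groups compared, and with candesartan (25) it was 16 and 11. For candesartan minus vehicle after MCAO (7) it was 2 with the offset at the 10th percentile, 0 without the filter, 4 without the variance trend and 0 with only the groups compared. For the interaction (2) it was 0 without the filter and 0 with the filter at the 60th percentile.

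The replicate block gave 4 calls for candesartan minus vehicle after MCAO and 0 for the interaction, both in limma. The correlation of the differences between pools ran from -0.095 to 0.14 over the pairs of groups. Such correlations cannot exclude that pools with the same number were handled together.

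Leaving out 1 array at a time gave 7 to 43 calls for MCAO minus sham with vehicle, 5 to 835 with candesartan, 21 to 389 over both pretreatments (43 with all arrays), 0 to 986 for candesartan minus vehicle after MCAO and 0 to 296 for the interaction. Each highest count was without the first MCAO candesartan array, which leaves the divergent second array alone in its group and assumes that it varies like the other groups. Of the 10 interneuron probe sets, 0 to 1 were then called for MCAO minus sham with candesartan (Sst) and 0 to 2 for candesartan minus vehicle after MCAO (Sst and Cck).

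Small differences changed sign with 1 array left out, as these lowest and highest values show. For MCAO minus sham with vehicle, the ranges were those of the brighter Gad1 probe set (-0.10 to 0.11), Sst (-0.072 to 0.26), Npy (-0.24 to 0.30), Vip (-0.11 to 0.14), Calb1 (-0.064 to 0.099) and Calb2 (-0.093 to 0.35). For MCAO minus sham with candesartan, they were those of the dimmer Gad1 probe set (-0.49 to 0.11) and Gad2 (-0.051 to 0.19). For MCAO minus sham over both pretreatments, they were those of the brighter Gad1 probe set (-0.10 to 0.00092), Gad2 (-0.12 to 0.0062), Npy (-0.010 to 0.26), Pvalb (-0.081 to 0.14) and Calb2 (-0.32 to 0.054). For candesartan minus vehicle after MCAO, they were those of Npy (-0.066 to 0.47) and Calb2 (-0.69 to 0.052). For candesartan minus vehicle after sham, they were those of the brighter Gad1 probe set (-0.080 to 0.055), the dimmer Gad1 probe set (-0.49 to 0.11), Gad2 (-0.18 to 0.068), Sst (-0.037 to 0.30), Npy (-0.029 to 0.055), Vip (-0.0031 to 0.31), Cck (-0.020 to 0.41), Pvalb (-0.29 to 0.15) and Calb2 (-0.023 to 0.42). For the interaction, they were those of the dimmer Gad1 probe set (-0.16 to 0.44) and Npy (-0.079 to 0.46).

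Arrays centred on their medians turned the sign for MCAO minus sham with vehicle of the brighter Gad1 probe set (-0.066), Npy (-0.037), Vip (-0.050) and Calb1 (-0.049), for candesartan minus vehicle of Npy after sham (-0.037) and of the dimmer Gad1 probe set after MCAO (0.024), and for the interaction of the brighter Gad1 probe set (0.023). Quantile normalization turned that of Vip for MCAO minus sham with vehicle (-0.0067) and of the brighter Gad1 probe set for candesartan minus vehicle after sham (0.011). The cause was not tested.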
